A study of Mus musculus with 15 samples.

Results

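The miRNAs described here are those best known from muscle, liver and blood cells, measured in 2 mouse islet tumour lines. The assays were chosen by name: miR-1, miR-122, miR-133a, miR-133b, miR-142, miR-144, miR-206, miR-208, miR-223 and miR-451, of either arm and for mouse or rat, which gave 14 of the 584 miRNA assays. No assay of that name was found for miR-144, which is not analysed here. Of the 14, 9 are for muscle miRNAs (mmu-miR-1, rno-miR-1, rno-miR-1*, mmu-miR-133a, mmu-miR-133a*, mmu-miR-133b, mmu-miR-206, mmu-miR-208 and mmu-miR-208b), 1 for the liver miRNA mmu-miR-122, and 4 for blood cell miRNAs (mmu-miR-142-3p, mmu-miR-142-5p, mmu-miR-223 and mmu-miR-451). The prefix mmu- of the mouse assays is left out below.

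The study asked which miRNAs differ between pancreatic α and β cells and which respond to cytokines. Each of 5 conditions had 3 samples, 15 in all, named by the replicate number in the labels and described in the methods as independent biological replicates. αTC1-6 is a mouse glucagonoma line and βTC1 a mouse insulinoma line, so each line stands for its cell type as a single tumour-derived line. Untreated αTC1-6 were sampled at 24 h and at 48 h and untreated βTC1 at 24 h, which is called steady state here. Treated αTC1-6 received IL1b at 50 IU/ml, IFNg at 1000 IU/ml and TNFa at 1000 IU/ml together for 24 h or 48 h, and no cytokine-treated βTC1 sample is analysed here.

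MiRNAs are short RNAs that pair through their seed, the bases near the 5′ end, with sites in messenger RNAs and lower their output. MiR-1, miR-133 and miR-206 are expressed in heart or skeletal muscle and act in muscle differentiation, and miR-208a and miR-208b lie in introns of cardiac myosin heavy chain genes. MiR-122 is the dominant miRNA of hepatocytes, miR-142 marks blood cells of all lineages, miR-223 marks myeloid cells, and miR-451 matures in red blood cells. None of these is best known from islets, whereas miR-375 is the most typical miRNA of islet endocrine cells.

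The sequences below, from RefSeq on GRCm38.p6, show which of the printed miRNAs share a seed. Their positions show which come from the same hairpin or from neighbouring ones. Of the 14 assays, 8 matched an entry by name, with miR-208 matched to miR-208a-3p and miR-142 to miR-142a, while miR-1, rno-miR-1, rno-miR-1*, miR-133a, miR-133a* and miR-122 are named only. Capitals mark the seed, bases 2 to 8.
miR-206-3p: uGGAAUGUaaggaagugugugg
miR-133b-3p: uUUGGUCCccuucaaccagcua
miR-208a-3p: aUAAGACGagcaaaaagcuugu
miR-208b-3p: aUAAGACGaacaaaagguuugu
miR-142a-3p: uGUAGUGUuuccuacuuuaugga
miR-142a-5p: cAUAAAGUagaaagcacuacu
miR-223-3p: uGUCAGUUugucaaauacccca
miR-451a: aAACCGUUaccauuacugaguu

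MiR-208a-3p (chr14:54949072-54949093, minus strand) and miR-208b-3p (chr14:54975710-54975731, minus strand) shared their seed. They differed at 3 bases outside it, G10A, A16G and C18U, counted from 1 at the 5′ end and written from miR-208a to miR-208b. The other 6 seeds printed here differed from each other. Seeds of the assays that are named only were not compared, so a seed shared with miR-1 or miR-133a was not looked for. MiR-206-3p (chr1:20679055-20679076, plus strand) and miR-133b-3p (chr1:20682834-20682855, plus strand) lie in neighbouring hairpins, Mir206 and Mir133b, with 3686 bases between them. Both miR-142 arms come from the hairpin Mir142, miR-142a-5p at chr11:87756867-87756887 and miR-142a-3p at chr11:87756903-87756925 on the plus strand. MiR-451a lies at chr11:78073186-78073207 and miR-223-3p at chrX:96242884-96242905, both on the plus strand.

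Levels were read as threshold cycles (Ct), the number of PCR cycles an assay needed to reach detection. Fewer cycles mean more miRNA, and 1 cycle is a log2 unit. ΔCt was taken against miR-26a of the same sample, again with lower values for more miRNA. In the deposited normalized table an undetermined well stands at a Ct of 40, and a few wells are blank. The deposited non-normalized table holds Ct values or the word undetermined. The islet miRNA miR-375 gave a Ct between 13.4 and 15.98 in all 15 samples of both tables. In the normalized table it had the lowest mean ΔCt among the assays with a Ct in all 3 samples in 4 of the 5 conditions. Other blood miRNAs outside the 14 assays were also measured: miR-150 had a Ct between 26.7 and 28.0 and miR-155 one between 24.9 and 31.7 in all 15 samples, whereas miR-486 had a Ct in 1 sample of the normalized table.

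Most values of the 14 assays were late or undetermined. Of their 210 values, 135 were a Ct in the normalized table, 68 were undetermined and 7 blank. The median Ct of these 135 values was 31.9 cycles, against 26.8 cycles over all miRNA values with a Ct. The non-normalized table gave a Ct for 177 of the 210 values, with a median of 31.3 cycles against 26.7 over all, and 13 of these, 7 of them of miR-133b, were under 25 cycles. Because each sample is RNA of a whole culture, a few cells with much of a miRNA and many cells with little of it cannot be told apart.

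**Figure D1:**
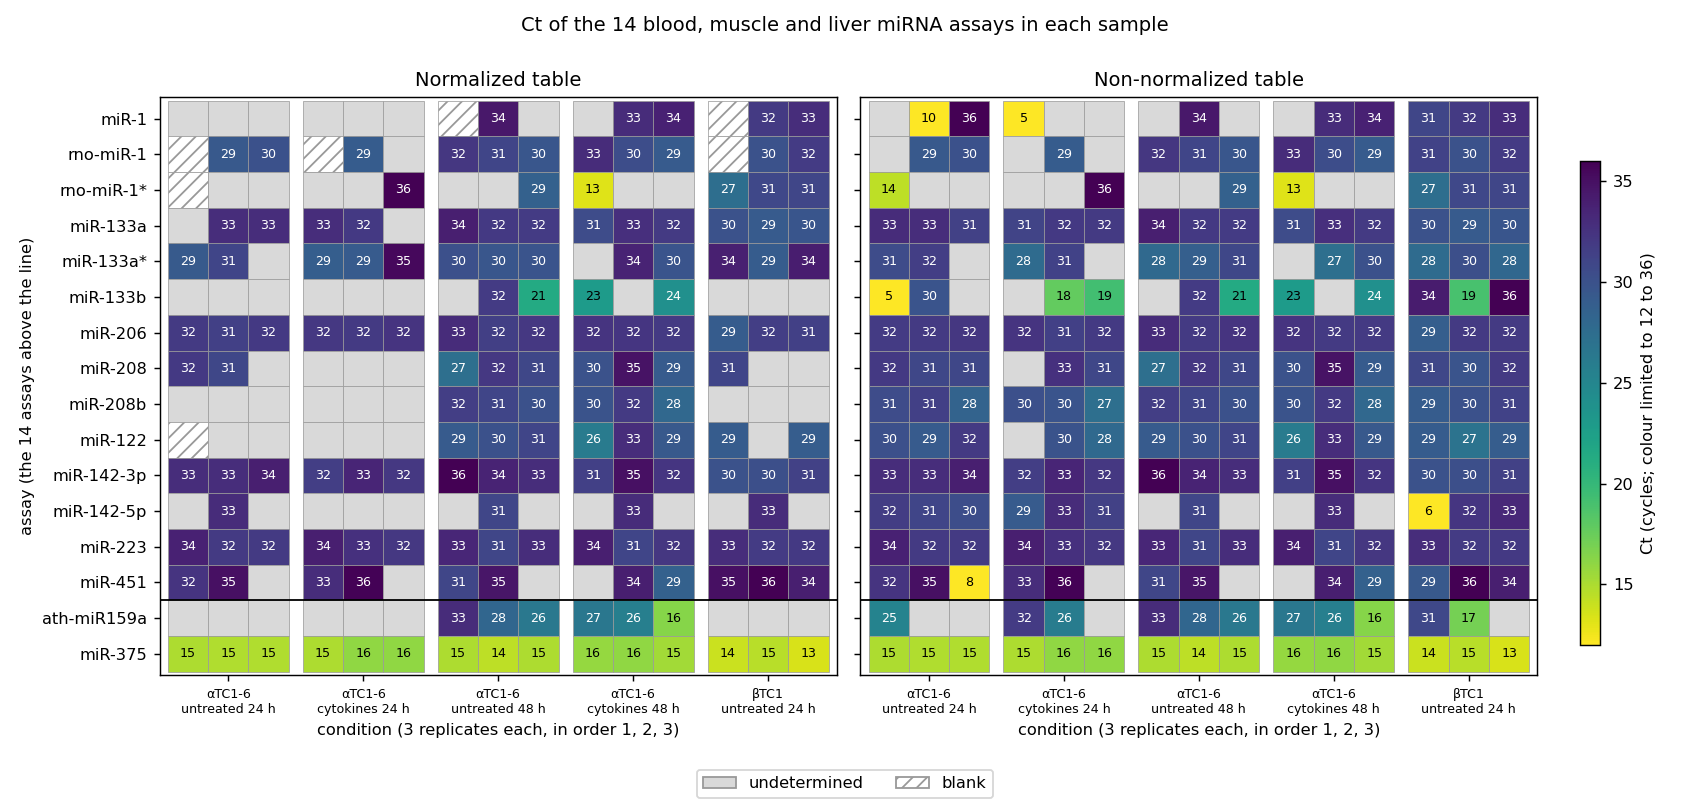
Each cell is the Ct (rounded to whole cycles, coloured from 12 to 36) of an assay in a sample, with the 14 assays above the line and the plant control ath-miR159a (card A) and miR-375 below it, in the normalized table (left) and the non-normalized table (right). Grey cells were undetermined and hatched cells blank. MiR-142-3p, miR-223 and miR-206 had a Ct in all 15 samples of both tables, and 39 values at 24 h are grey on the left and a Ct on the right.

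The tables disagreed on these assays at 24 h. In the normalized table, a Ct in all 3 samples was found for 3 of the 14 assays in untreated αTC1-6 at 24 h (miR-142-3p, miR-223 and miR-206), against 65.2% of all miRNA assays. It was found for 4 in treated αTC1-6 at 24 h (60.8% of all assays), for 7 in βTC1 (68.2%), for 9 in untreated αTC1-6 at 48 h (75.5%) and for 8 in treated αTC1-6 at 48 h (77.6%). The non-normalized table gave 9 (76.0%), 6 (75.7%), 14 (80.7%), 9 (76.7%) and 8 (77.1%) in the same order. All 14 assays thus had a Ct in every βTC1 sample of the non-normalized table, and in no αTC1-6 condition of either table did more than 9 assays have one in all 3 samples.

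Between the tables, 39 values went from a Ct (non-normalized) to undetermined (normalized). All 39 were samples of 24 h and card A assays, 28 in αTC1-6 and 11 in βTC1, and none was of 48 h. They made up 44.3% of the 88 such values of the card A assays at 24 h, against 21.4% of 2950 values over all miRNA assays of that card. Their Ct lay between 5.34 and 35.98 cycles with a median of 30.1. Which step set these wells to undetermined is not given in the sources used here, and its part in the results was not tested. A single-well reading could also be very early: the non-normalized table gave 5 of the 14 assays' values a Ct under 12 cycles, in miR-1 (10.3 and 5.34), miR-133b (5.39), miR-142-5p (5.90) and miR-451 (8.27), which is earlier than miR-375 in any sample.

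The plant control ath-miR159a, which has no counterpart in mouse cells, gives the background of the card. On card A it had a Ct in all 6 samples of 48 h in the normalized table, from 16.3 to 33.0 cycles, and in none of the 9 samples of 24 h. In the non-normalized table it had a Ct in 11 of 15 samples. At 48 h the control read from 26.4 to 33.0 in untreated and from 16.3 to 26.5 in treated αTC1-6. In untreated cells the card A assays among the 14 read from 21.4 to 36.03. The 21.4, of miR-133b, was earlier than the control, and the others lay within its range or later. In treated cells they read from 22.9 to 34.98. Only miR-133b (22.9 and 24.0) and miR-122 (26.1) had readings within the control's range there, and all others were later. The lowest value of all at 48 h, 13.2, was that of rno-miR-1* on card B. There the control had a Ct in 12 samples of the normalized table, from 4.57 to 33.9 cycles over both times.

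Where an assay had a Ct in all 3 samples of a condition, its mean level was below that of the median assay. Ranked by mean ΔCt among the assays with a Ct in all 3 samples, the first of the 14 to appear was miR-206 at 343 of 381 in untreated αTC1-6 at 24 h, miR-133a* at 321 of 355 in treated αTC1-6 at 24 h, miR-133a* at 345 of 441 in untreated αTC1-6 at 48 h, miR-122 at 321 of 453 in treated αTC1-6 at 48 h, and miR-133a at 310 of 398 in βTC1. These first members stood 13.8 to 16.9 cycles behind miR-375 of the same condition. The farthest from miR-375 was miR-451 in βTC1, at 394 of 398 and 21.0 cycles behind. The last by share of the ranks was miR-142-3p in untreated αTC1-6 at 48 h, at 438 of 441 and 19.5 cycles behind. The ranking leaves out early readings in single samples, such as miR-133b with a ΔCt of 3.47, 4.44 and 6.59 in 3 samples of 48 h and rno-miR-1* with -5.30 in 1, where the median assay stood at 8.37 in untreated and 9.12 in treated cells. Ranks compare different assays, whose amplification efficiencies are unknown.

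**Figure D2:**
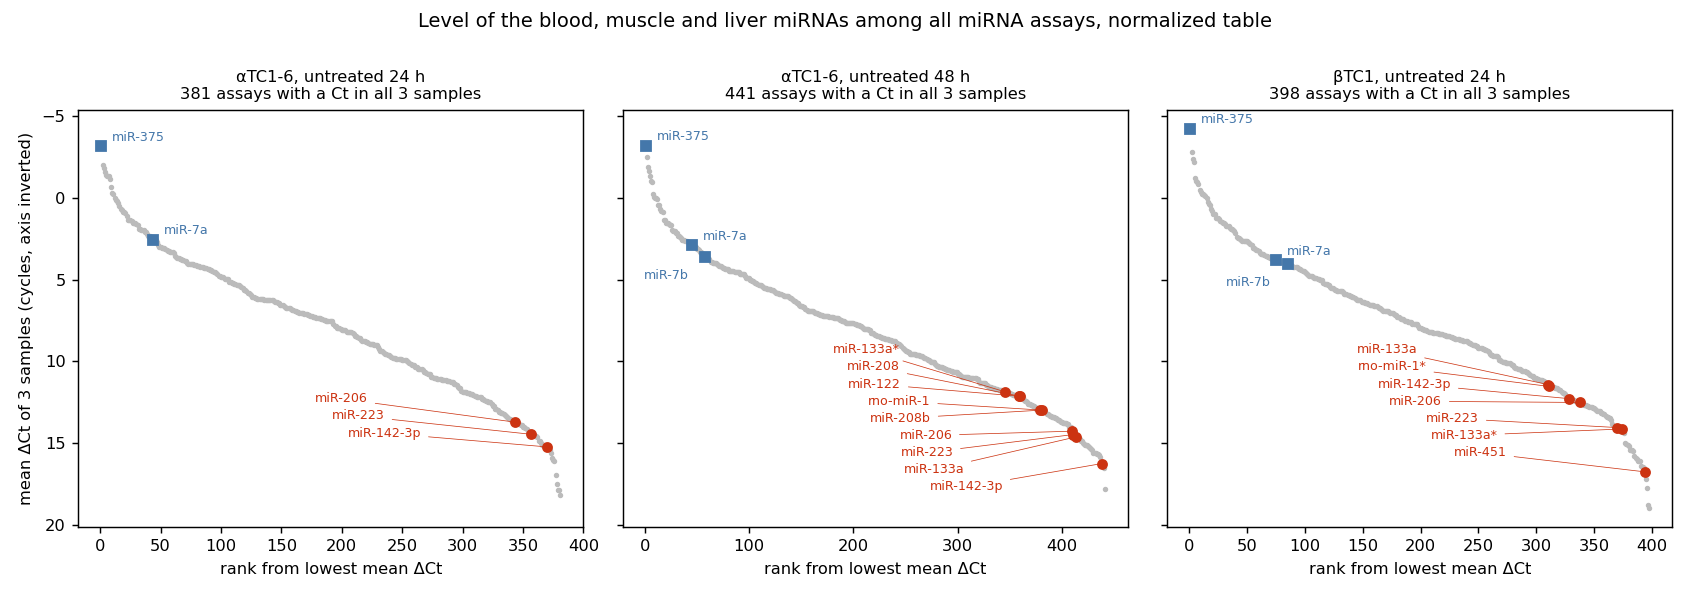
Mean ΔCt to miR-26a of 3 samples (cycles, inverted axis) against rank for all assays with a Ct in all 3 samples of untreated αTC1-6 at 24 h and 48 h and of βTC1, normalized table. The blood, muscle and liver miRNAs (red circles) begin at rank 343 of 381, 345 of 441 and 310 of 398, far behind miR-375 and miR-7 (blue squares).

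Among the muscle miRNAs, miR-133a was lower in αTC1-6 than in βTC1 at steady state, in both tables. Its Ct was 30.0, 29.2 and 29.7 in the 3 βTC1 samples in both tables. In untreated αTC1-6 at 24 h it was undetermined, 33.0 and 32.9 in the normalized table, and 33.1, 33.0 and 31.3 in the non-normalized one. All αTC1-6 values were later than all βTC1 values in either table. With the undetermined well at a Ct of 40, ΔCt was 17.24 ± 3.27 in αTC1-6 and 11.41 ± 0.83 in βTC1 (SD, n = 3), and the log2 difference was -5.83 with an SE of 1.69 (limma, adjusted p = 0.0372). From the non-normalized Ct values it was -2.98 with an SE of 0.74 (limma, adjusted p = 0.0401), which is 7.87-fold less miR-133a in αTC1-6. With the undetermined well as missing in the normalized table it was -3.94. The size but not the direction thus rested on the well at 40 and on the third αTC1-6 sample, 32.9 or 31.3. The call was lost when βTC1 replicate 1, 2 or 3 was left out (limma, adjusted p = 0.0951, 0.120 and 0.0807), and adjustment over both cards gave 0.0533. Another muscle miRNA, miR-499, is no member, and had a Ct of 29.0, 28.0 and 29.0 in βTC1 in the normalized table. It was undetermined there in all 3 untreated αTC1-6 samples of 24 h (log2 difference -11.48, SE 0.77, limma, adjusted p = 7.98e-05). MiR-499 was thus tested only through its βTC1 values, and its size is set by the Ct of 40 given to each αTC1-6 sample. In the non-normalized table those αTC1-6 samples had a Ct of 30.2, 32.9 and 17.9.

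In the other αTC1-6 conditions miR-133a was later than in any βTC1 sample by Ct, and by ΔCt 1 treated sample of 48 h (12.06) fell within the βTC1 range of 10.50 to 12.12. Its non-normalized Ct was 31.1, 32.1 and 31.9 after 24 h of cytokines, 34.0, 32.0 and 31.8 in the untreated cells of 48 h, and 30.6, 32.7 and 31.9 after 48 h of cytokines. On that table's ΔCt scale the order of means was βTC1 (11.41), αTC1-6 with cytokines at 24 h (13.42) and at 48 h (13.86), and untreated αTC1-6 at 24 h (14.39) and at 48 h (14.62). The 3 pairs of αTC1-6 conditions that were compared did not differ past the threshold, with log2 differences between -0.24 and 0.97 and SEs between 0.64 and 0.91.

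The passenger strand assay miR-133a* was irregular. It sits in duplicate wells, and in the normalized table both wells had a Ct in 9 samples, with a median difference of 2.21 cycles between them and up to 4.53, while in 4 samples only 1 well had a Ct. The mean of its wells was 29.3, 31.0 and undetermined in untreated αTC1-6 at 24 h and 33.9, 29.1 and 34.1 in βTC1, so the lines overlapped (log2 difference -1.22, SE 3.45, limma, adjusted p = 0.84). The 33.9 and 34.1 are means of a well at 27.7 or 28.1 and an undetermined well at 40. The non-normalized table holds only the value of the first well, repeated for the second. By that well alone, miR-133a* had 27.7, 30.2 and 28.1 in βTC1 and 30.5, 31.6 and undetermined in αTC1-6. These did not overlap (log2 difference -5.50, SE 2.92, limma, adjusted p = 0.38).

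MiR-206 was the muscle miRNA with the most reproducible signal, with a Ct in all 15 samples and a median difference of 0.476 cycles between its duplicate wells. Its mean Ct over both wells was 31.9, 31.4 and 32.0 in untreated αTC1-6 at 24 h, 32.1, 31.9 and 32.4 after 24 h of cytokines, 33.0, 31.6 and 32.2 at 48 h untreated, and 32.4, 32.3 and 31.9 after 48 h of cytokines. In βTC1 it was 29.1, 31.7 and 31.4. One βTC1 sample was thus the earliest of all, and the other βTC1 values lay within the αTC1-6 range. ΔCt was 12.51 ± 1.65 in βTC1 and 13.71 ± 0.69 in untreated αTC1-6 at 24 h (SD, n = 3), a log2 difference of -1.20 with an SE of 0.95 (limma, adjusted p = 0.53). The other αTC1-6 conditions had mean ΔCt values of 13.89, 14.27 and 14.33, and none of the comparisons called it.

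MiR-133b, whose hairpin neighbours that of miR-206, did not follow it. It had a Ct in 4 samples of the normalized table, all of 48 h: 31.8 and 21.4 in untreated αTC1-6 and 22.9 and 24.0 in treated αTC1-6. The remaining sample of each 48 h condition was undetermined. The non-normalized table added 7 values at 24 h, which were 5.39 and 29.8 in untreated αTC1-6, 17.7 and 19.3 in treated αTC1-6 and 34.2, 19.0 and 35.98 in βTC1. βTC1 in the non-normalized table was the one condition with a Ct in all 3 samples, of which the 34.2 and 35.98 lay close and the 19.0 far from both.

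The mouse miR-1 assay was undetermined in all 6 αTC1-6 samples of 24 h in the normalized table. It had a Ct of 34.5 in 1 untreated and of 33.0 and 33.8 in 2 treated αTC1-6 samples of 48 h, and of 31.9 and 32.9 in 2 βTC1 samples, the third being blank there and 31.0 in the non-normalized table. The rat miR-1 assay read more often: its Ct was 29.4 and 30.0 in 2 of the untreated αTC1-6 samples and 29.1 in 1 treated sample of 24 h, 32.2, 31.1 and 29.6 in untreated and 33.1, 30.4 and 29.2 in treated αTC1-6 at 48 h, and 30.0 and 31.8 in 2 βTC1 samples. It had a Ct in every sample in which the mouse assay had one in the normalized table, and in 6 more. Between the lines its log2 difference was 0.68 with an SE of 1.27 (limma, adjusted p = 0.73), with 1 blank sample on each side.

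The assay rno-miR-1* had the largest of the 3 differences called between the lines, and it rested on undetermined wells. Its Ct was 27.4, 30.8 and 31.0 in βTC1 in both tables. In untreated αTC1-6 at 24 h it was undetermined in 2 samples and blank in the third, for which the non-normalized table holds a Ct of 14.4. With the blank left out, the log2 difference was -10.86 with an SE of 1.44 (limma, adjusted p = 0.0130). With the non-normalized value it was -1.85 with an SE of 7.96 (limma, adjusted p = 0.89), and against the αTC1-6 controls of 48 h, 1 of which had a Ct of 28.7, the adjusted p was 0.353. Without untreated αTC1-6 replicate 2 or 3 it was 0.0805 and 0.0897.

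MiR-208 and miR-208b, which share their seed, both had a Ct in all 6 samples of 48 h in the normalized table, and differed in detection at 24 h. At 48 h miR-208b had a Ct of 31.7, 31.1 and 30.1 in untreated and 29.9, 31.9 and 28.0 in treated αTC1-6, and miR-208 had 27.3, 32.1 and 30.9 and 29.9, 34.8 and 29.2, so that in single samples the assays lay several cycles apart. At 24 h miR-208b was undetermined in all 9 samples, whereas miR-208 had a Ct of 32.0 and 30.9 in 2 untreated αTC1-6 samples and of 31.1 in 1 βTC1 sample. In the non-normalized table miR-208b had a Ct in all 9 of these: 30.6, 31.4 and 28.4 in untreated αTC1-6, 30.2, 29.8 and 27.3 in treated αTC1-6 and 29.1, 30.1 and 31.2 in βTC1. Those 24 h values ran from 27.3 to 31.4, and the 48 h values from 28.0 to 31.9.

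The liver miRNA miR-122 showed the same split between the tables. In the normalized table it was undetermined or blank in all 6 αTC1-6 samples of 24 h, and had a Ct of 29.2, 30.0 and 31.1 in untreated and 26.1, 33.0 and 29.4 in treated αTC1-6 at 48 h. In βTC1 it was 29.1, undetermined and 29.0. The non-normalized Ct values at 24 h were 30.1, 29.2 and 31.9 in untreated αTC1-6, undetermined, 29.9 and 27.9 in treated αTC1-6, and 29.1, 26.8 and 29.0 in βTC1. From these, untreated αTC1-6 had less miR-122 than βTC1 by a log2 difference of -2.24 with an SE of 1.28, which did not pass the threshold (limma, adjusted p = 0.31).

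Among the blood cell miRNAs, miR-142-3p was lower in αTC1-6 than in βTC1 at steady state. Its Ct was 33.0, 33.0 and 34.0 in untreated αTC1-6 and 29.9, 30.2 and 31.3 in βTC1, the same in both tables, and the groups did not overlap. ΔCt was 15.23 ± 1.15 against 12.28 ± 1.33 (SD, n = 3), a log2 difference of -2.96 with an SE of 0.94 (limma, adjusted p = 0.0477), or 7.77-fold less in αTC1-6. This was close to the threshold: with U6 and small nucleolar RNAs as the reference the adjusted p was 0.198 and 0.0918 in the non-normalized table. Without αTC1-6 replicate 2 or 3 or βTC1 replicate 1 or 2 it was 0.135, 0.157, 0.143 and 0.147, and over all alternatives it ran from 0.00938 to 0.198. Of other blood and vascular miRNAs, endothelial miR-126-3p was also lower in αTC1-6 (log2 difference -2.39, SE 0.53, limma, adjusted p = 0.0141), as was miR-126-5p (-2.39, SE 0.45, adjusted p = 0.00735). The lymphoid miRNA miR-150 differed by -0.064 (SE 0.65, limma, adjusted p = 0.95), and miR-155 by 2.65 in the other direction without overlap (SE 1.12, limma, adjusted p = 0.113). Their part in the difference of miR-142-3p was not tested.

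Under cytokines miR-142-3p had a Ct of 31.7, 33.5 and 32.1 at 24 h and of 31.4, 34.98 and 32.3 at 48 h, against 36.03, 33.7 and 32.9 in the untreated cells of 48 h. The treated and untreated samples overlapped at both times. The log2 differences were 1.08 with an SE of 0.93 at 24 h (limma, adjusted p = 0.96) and 1.23 with an SE of 1.28 at 48 h (limma, adjusted p = 0.83), and their difference was 0.15 with an SE of 1.64. The order of mean ΔCt was βTC1 (12.28), treated αTC1-6 at 24 h (14.15) and at 48 h (15.02), and untreated αTC1-6 at 24 h (15.23) and at 48 h (16.25), and of the 4 pairs compared only βTC1 and untreated αTC1-6 at 24 h differed past the threshold.

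The other arm of the same hairpin, miR-142-5p, had a Ct in 4 samples of the normalized table: 33.0 in 1 untreated αTC1-6 sample of 24 h, 31.0 and 33.0 in 1 untreated and 1 treated αTC1-6 sample of 48 h, and 33.0 in 1 βTC1 sample. In each of these samples miR-142-3p also had a Ct, and in the other 11 samples only the 3p arm did. The non-normalized table gave the 5p arm a Ct in all 9 samples of 24 h, of which 8 were between 29.2 and 33.3 cycles and 1, in βTC1, was 5.90, and in 2 of the 6 samples of 48 h.

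MiR-223 varied least between the 5 conditions of the 3 assays with a Ct in all 15 samples. Its Ct was 33.8, 32.0 and 31.9 in untreated αTC1-6 at 24 h, 34.0, 32.7 and 32.1 after 24 h of cytokines, 33.5, 30.9 and 32.9 at 48 h untreated, 34.0, 31.1 and 32.2 after 48 h of cytokines, and 33.0, 31.8 and 32.0 in βTC1, the same in both tables. Mean ΔCt lay between 14.05 ± 0.84 in βTC1 and 14.64 ± 0.48 in treated αTC1-6 at 24 h (SD, n = 3), and the conditions overlapped. The log2 differences of the 4 pairwise comparisons lay between -0.41 and -0.018, with SEs between 0.40 and 0.66.

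The red cell miRNA miR-451 was late and irregular. In the normalized table its Ct was 32.4, 34.99 and undetermined in untreated αTC1-6 at 24 h, 32.9, 35.9 and undetermined after 24 h of cytokines, 31.0, 34.7 and undetermined at 48 h untreated, and undetermined, 34.0 and 28.6 after 48 h of cytokines. In βTC1 it was 34.98, 35.99 and 34.0, so βTC1 alone had it in all 3 samples, late in each. The log2 difference between the lines was -0.95 with an SE of 2.23 (limma, adjusted p = 0.77), and with 1 replicate left out it ran from -3.12 to 1.35. The non-normalized table had a Ct of 8.27 for the third untreated αTC1-6 sample and 29.4 for the first βTC1 sample, so both lines had a Ct in all 3 samples there, and the sign turned (7.77, SE 7.52, limma, adjusted p = 0.57).

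**Figure D3:**
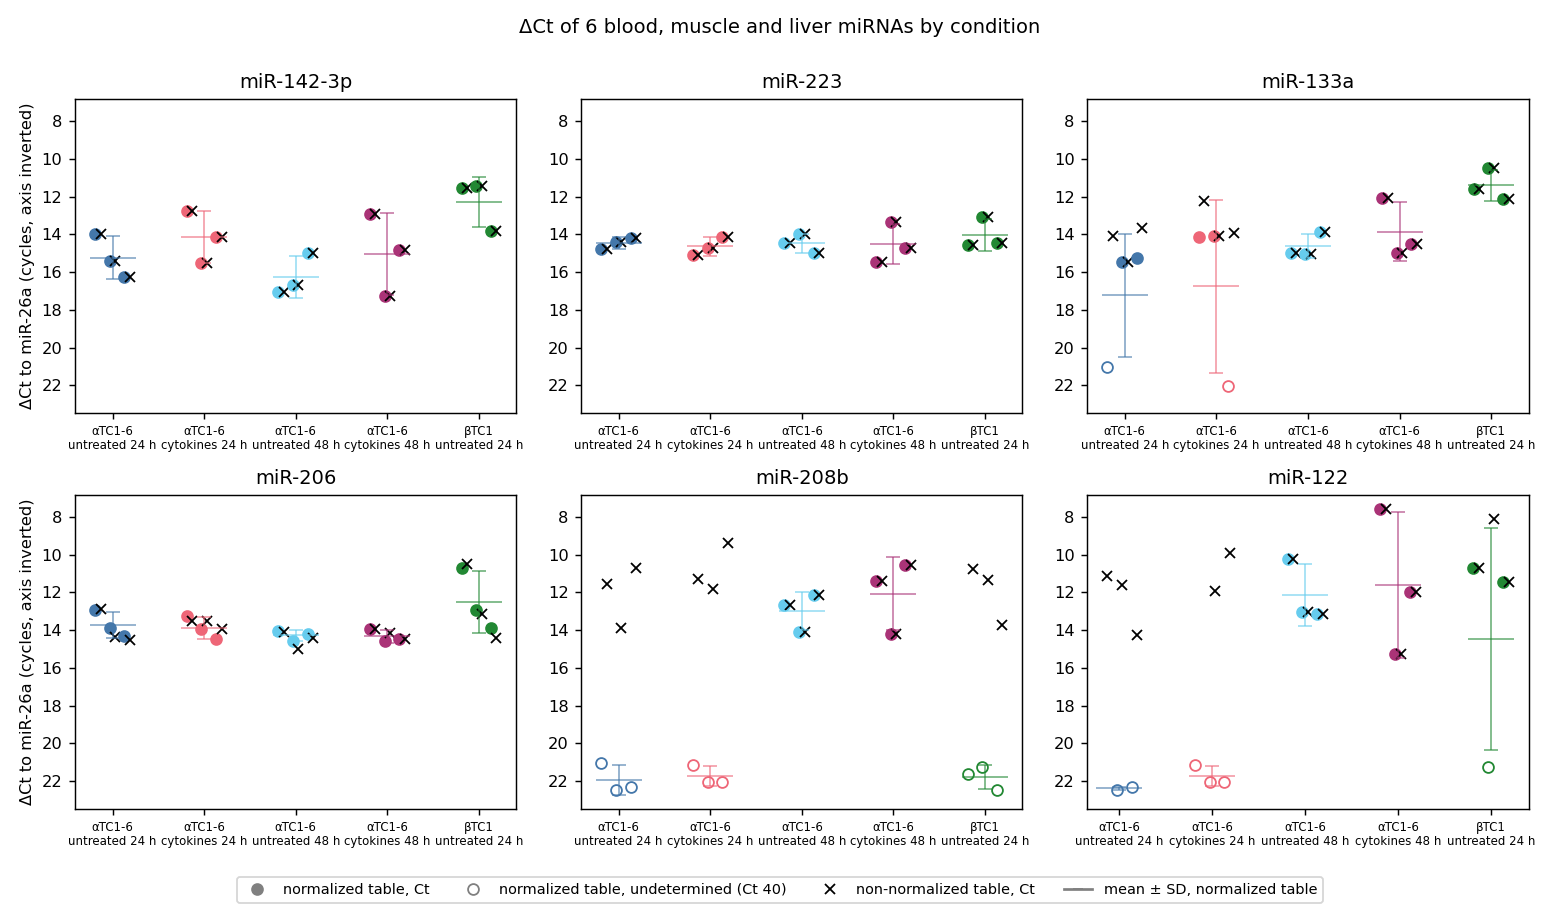
ΔCt to miR-26a (cycles, inverted axis) in each sample of the 5 conditions for miR-142-3p, miR-223, miR-133a, miR-206, miR-208b and miR-122. Filled circles are a Ct and open circles an undetermined well at 40 in the normalized table, crosses show the Ct of the non-normalized one, and bars give the mean ± SD of the circles (n = 3, or 2 where a well is blank). MiR-208b is undetermined at 24 h in the normalized table and near its 48 h level in the other.

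In the comparison of the lines, 9 of the 14 assays had a Ct in at least 3 of the 6 samples and were tested. Of these, 3 were lower in αTC1-6 (rno-miR-1*, miR-133a and miR-142-3p, limma, adjusted p under 0.05) and 0 higher. Over all 480 miRNAs tested 29.6% were called, 17.7% lower and 11.9% higher in αTC1-6, so that 3 of 9 was near the background share. The groups did not overlap for the same 3 assays, against 45.8% of all miRNAs tested. The median log2 difference was -1.20 over the 9 and -0.52 over all 480. Of the 3, rno-miR-1* was tested only through its βTC1 values. From the non-normalized table all 14 were tested, 11 with a negative log2 difference and 3 with a positive one, and only miR-133a was called, against 18.7% of 539 miRNAs. The groups of 3 of the 14 (miR-133a, miR-142-3p and, by its first well alone, miR-133a*) did not overlap there, against 36.7% of all.

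Cytokines changed none of the assays past the threshold. At 24 h PT 0 of 7 tested assays were called by limma, against 0.225% of 445 miRNAs, and 0 had an unadjusted p under 0.05, against 4.49%. At 48 h PT 0 of 12 were called, against 0.562% of 534 miRNAs, and 0 had an unadjusted p under 0.05, against 11.2%. The log2 differences at 48 h PT ran from -4.75 for miR-133a* (SE 2.40, limma, adjusted p = 0.37) to 2.04 for miR-1 (SE 2.58, limma, adjusted p = 0.83), with a median of 0.64 against -0.51 over all miRNAs tested. No assay had treated and untreated samples that did not overlap at either time, against 13.3% of all miRNAs at 24 h and 19.3% at 48 h. The difference between the effects at 48 h and 24 h was called for 0 of 10 assays, against 0.21% of 477 miRNAs, with 0 at an unadjusted p under 0.05 against 3.98%. From the non-normalized table limma also called 0 assays in each of these 3 comparisons, against 0% of all miRNAs at 24 h, 0.567% at 48 h and 0% for the difference, and no assay had groups without overlap, against 12% at 24 h and 18.9% at 48 h.

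Between untreated αTC1-6 of 48 h and of 24 h, 2 of 10 tested assays were higher at 48 h, against 5.93% of 489 miRNAs called, 5.52% higher and 0.409% lower. These were miR-122 (log2 difference 10.25, SE 1.08, limma, adjusted p = 0.0063, with 1 blank sample left out at 24 h) and miR-208b (log2 difference 8.95, SE 0.70, limma, adjusted p = 0.00076). Both were tested only through their 48 h values, and both sizes are set by the Ct of 40 given to each undetermined 24 h sample. Without any 1 of the 48 h replicates neither could be tested, and without 24 h replicate 3 miR-122 lost its call (limma, adjusted p = 0.0621). In the other table the differences were 0.20 with an SE of 1.24 for miR-122 (limma, adjusted p = 0.98) and -0.91 with an SE of 1.02 for miR-208b (limma, adjusted p = 0.97). There 0 of 13 assays were called, against 0.385% of 520 miRNAs, and 1 had an unadjusted p under 0.05, against 19 of the 520. That one was miR-142-5p (-6.05, SE 2.26), the single assay without overlap there, against 6.15% of all. MiR-142-5p had a Ct in 1 of the 3 untreated samples of 48 h, and its size is set by the Ct of 40 given to the others. MiR-133a was the third assay without overlap in the normalized table, where 14.7% of all miRNAs had none, and its log2 difference of 2.61 (SE 1.69) did not pass the threshold (limma, adjusted p = 0.83).

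**Figure D4:**
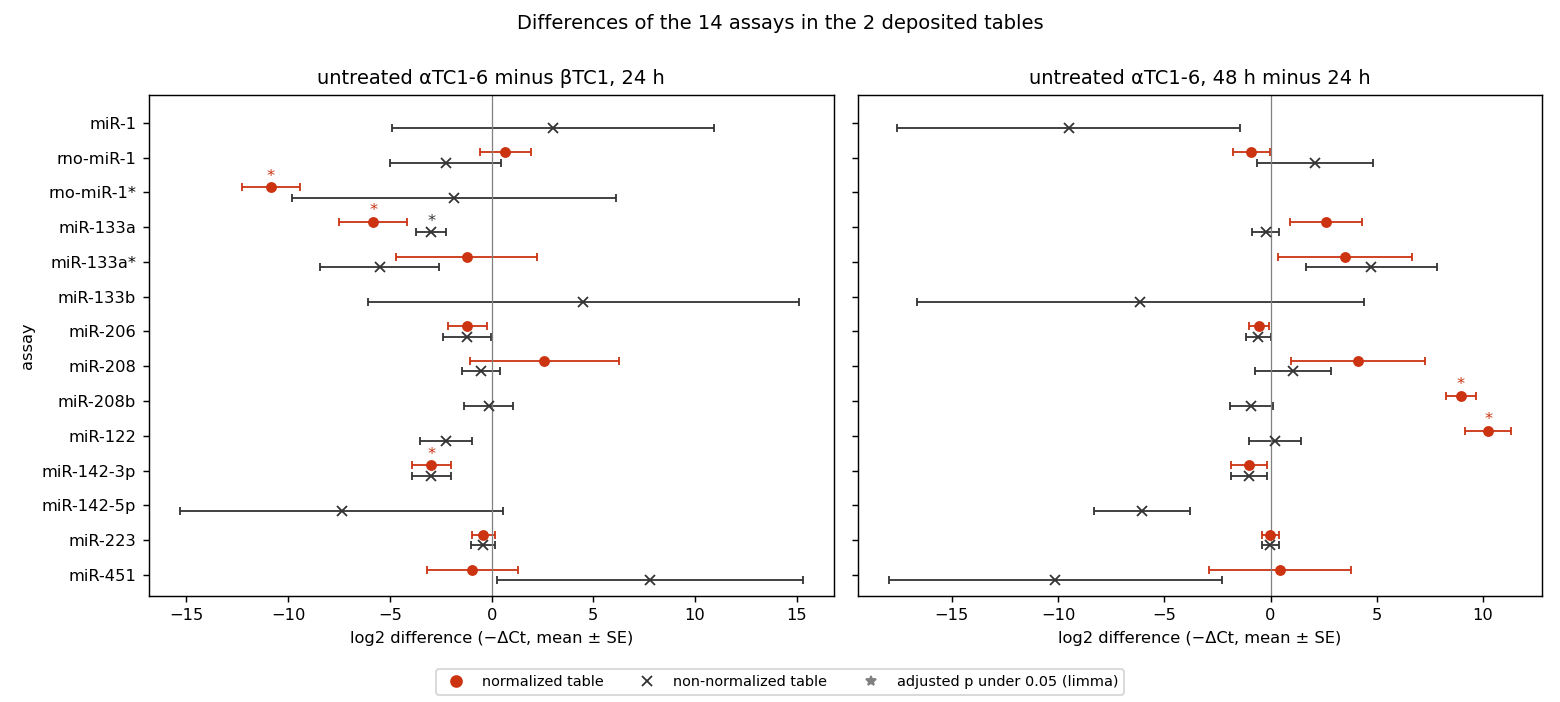
Log2 differences (−ΔCt, mean ± SE) of the 14 assays between untreated αTC1-6 and βTC1 at 24 h (left) and between untreated αTC1-6 of 48 h and 24 h (right), from the normalized (red circles) and the non-normalized table (black crosses). Asterisks mark an adjusted p under 0.05 in limma. MiR-142-3p and miR-223 sit at the same value in both tables, and miR-208b and miR-122 move from 8.95 and 10.25 to -0.91 and 0.20 in the right panel.

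The 3 assays with a Ct in all 15 samples were compared with the other assays read in every sample, by the root mean square difference of ΔCt over the 15 samples after centring each assay on its mean. The patterns most like that of miR-142-3p were those of miR-125b-5p (1.07 cycles), miR-744 (1.19) and miR-183* (1.22), against a median of 1.75 over all assays read in every sample. For miR-223 they were miR-219 (0.624), miR-804 (0.624) and miR-344 (0.654), against a median of 1.11. For miR-206 they were miR-15a (0.535), miR-423-5p (0.640) and rno-miR-148b-5p (0.647), against a median of 1.06. All of these share the 15 samples and the miR-26a reference.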

How the data were processed

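MiRNAs of 15 samples were measured with TaqMan Rodent miRNA cards A and B after reverse transcription and preamplification, per the labels. The authors deposited Ct values (cycles) in a non-normalized table, and in a normalized table ΔCt, which are log2 values relative to miR-26a, with relative quantities, a ratio to miR-26a computed as 2 to the power of -ΔCt. A table of the authors' fold changes was not used. The methods name multiple reference genes and StatMiner, whereas the deposited ΔCt of miR-26a is 0 in every sample. The non-normalized table repeats 1 value for both wells of duplicate assays.

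Ct values were recovered by adding the Ct of miR-26a (17.0 to 19.0). Undetermined wells stood at 40, blanks were left out, duplicate wells were averaged, and an assay needed a Ct under 40 in at least 3 of 6 samples compared (6 of 12 for the difference of the effects). Each comparison was fitted on -ΔCt over all miRNA assays with limma 3.58.1 in R 4.3.3 (eBayes, two-sided, Benjamini-Hochberg adjustment within each card, threshold 0.05), without the control assays and miR-26a, on the samples compared only. The test was checked on simulated data drawn from assays with a Ct in all 6 αTC1-6 samples of 48 h. No undetermined or blank wells entered, so the check does not cover calls that rest on wells at 40. Alternatives covered the reference, the filter, undetermined and duplicate wells, the table, the adjustment, the samples in the fit, the replicate number as a block, and each replicate left out. The non-normalized table without Ct values under 12 was added after seeing the data. An exact permutation test (two-sided) on 3 and 3 samples has a smallest p of 0.1. On card A 214 to 276 miRNAs per sample of 24 h and 304 to 337 per sample of 48 h had a Ct in the normalized table. In the non-normalized table these were 308 to 348 and 316 to 338. The number of replicates limits the precision.

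Groups and replicate numbers came from the labels. Between treated and untreated αTC1-6, deviations from the group means of same-numbered samples correlated with r of 0.34, 0.35 and 0.54 at 24 h and 0.53, 0.57 and 0.62 at 48 h, so the numbers pair those samples. The SEs, adjusted p-values and overlaps given for the cytokine comparisons do not use this pairing. It entered only the alternative with the replicate block. The 14 assays and the comparison miRNAs were chosen with earlier results of these data known. All 14 were named, beside miR-375, miR-7, further blood and vascular miRNAs, the plant control and the 3 assays most like each assay read in every sample. Of these, endothelial miR-126-3p had a Ct of 22.2 to 26.5 in all samples and muscle miR-499 a Ct in 6.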

Additional observations from a re-analysis of the deposited data

Results flagged for a closer look

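The non-normalized table holds Ct readings that the normalized table does not: 39 of the 210 values of these assays were a Ct in the former and undetermined in the latter, all at 24 h. Their median Ct was 30.1 cycles, 29 of them lay between 25 and 35, and 8 were under 25. The plant control ath-miR159a had 5 such values on card A, also all at 24 h. Whether the 39 readings are specific was not tested. The assays with the most such values were miR-208b (9), miR-133b (7) and miR-142-5p (7), and miR-142-3p, miR-223, miR-206, rno-miR-1, rno-miR-1* and miR-133a* had 0.

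The plant control ath-miR159a, which lies outside the measured miRNAs, had a Ct on card A in 6 samples of the normalized table, all of 48 h. On card B it had a Ct there in 12 samples, from 4.57 to 33.9 cycles. MiR-133b, on card A, had a Ct in 4 samples of 48 h, 31.8 and 21.4 in untreated and 22.9 and 24.0 in treated αTC1-6. The control's card A range was 26.4 to 33.0 in untreated and 16.3 to 26.5 in treated cells. The 21.4 was thus earlier than the control in untreated cells, and the other readings lay within its range.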

How the results depend on the processing

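In the comparison of the lines, 3 of the 14 assays were called. With a Ct in every sample, undetermined wells as missing, the non-normalized table, adjustment across cards A and B, a joint fit of the 15 samples or the replicate block, 1 was called in each case, and with 1 replicate left out the count lay between 0 and 3 (0 without βTC1 replicate 1 or 2, and 1 without βTC1 replicate 3 or αTC1-6 replicate 2 or 3). Between untreated αTC1-6 of 48 h and 24 h, 2 were called. With Ct values above 35 set to 35 or a joint fit of the 15 samples 1 was called, with a Ct in every sample, undetermined wells as missing or the non-normalized table (with or without Ct values under 12) 0, and with 1 replicate left out 0 to 2 (0 without any 48 h replicate, and 1 without 24 h replicate 3). Where wells were missing or a Ct was needed in every sample, or a 48 h replicate was left out, miR-122 and miR-208b could not be tested. Between the lines, rno-miR-1* could not be tested under these same 2 settings or without any 1 βTC1 replicate. MiR-133a could not be tested there where a Ct was needed in every sample. The difference of miR-208b turned from 8.95 to -0.91 in the non-normalized table, with and without Ct values under 12. Cytokines called 0 assays in every alternative run at 24 h, at 48 h and for their difference. In untreated αTC1-6 of 24 h 9 of the 14 assays had a Ct in all 3 samples of the non-normalized table instead of 3, and in βTC1 14 instead of 7.

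With the replicate block, miR-133a (adjusted p = 0.0582) and rno-miR-1* (0.0634) lost their call between the lines, and miR-142-3p kept it (0.0279). Whether the numbers pair these samples is unclear, as same-numbered samples correlated with r of 0.28, 0.14 and 0.098, and 1 of 3 samples was closest to another number. For untreated αTC1-6 of 48 h and 24 h r was 0.086, 0.050 and -0.027, and the block called 2. It changed no call of the cytokine comparisons.

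Over all alternatives, the sign of single assays changed in 10.2% of the values between the lines, 14.3% and 13.6% under cytokines at 24 h and 48 h, 8.57% between the times and 15.4% for the difference of effects. A Ct past 33 cycles is near the end of the measured range, and whether readings there are specific was not tested.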
